A study of Mus musculus with 59 samples.

Results

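The loss of RNA between 4 h and 8 h of Actinomycin D was measured in control mouse embryonic stem cells (ESCs). The members are the 4 total RNA libraries that the rule takes from the experiment, 2 of control cells after 4 h and 2 after 8 h of the drug, out of 12 libraries of the Actinomycin D experiment and 59 samples in the series; the other 47 samples were not analysed here. All 12 libraries came from ESCs derived from blastocysts of the BDF1 strain and grown with serum, LIF, CHIR99021 and PD0325901. The control cells are labelled wild type and the remaining 6 libraries are labelled Zcchc8 knockout (KO). Actinomycin D was given at 5 μg/ml for 0 h, 4 h or 8 h, with 2 libraries per genotype and time. Ribosomal RNA was depleted before sequencing, and ERCC spike-in RNA was added according to the labels, although the deposited table holds 0 ERCC entries. The sources used here do not say how many ESC lines or clones stand for a genotype, which change was made in the Zcchc8 gene, or whether the 2 libraries of a group came from separate cultures, so p-values rest on differences among these libraries that may be technical only.

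Actinomycin D binds DNA and blocks transcription, so that an RNA that is no longer made falls at the rate at which it is degraded. Cytoplasmic mRNAs are usually degraded after their poly(A) tail is shortened, by decapping and exonucleases or by the exosome, whereas many nuclear RNAs are handed to the nuclear exosome by adaptor complexes. ZCCHC8 is a scaffold of 1 such adaptor, the nuclear exosome targeting complex. The mRNAs of the replication-dependent histones are an exception among mRNAs: they end in a conserved stem-loop bound by SLBP in place of a poly(A) tail, and they are degraded quickly when DNA synthesis stops.

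The 4 compared libraries held 859481 and 1027826 reads at 4 h and 666534 and 984585 reads at 8 h, recovered from the authors' normalised read counts, in which 1 read of these libraries was worth 0.452 to 0.772 units. The normalised counts summed to 625369 and 793873 at 4 h and to 360228 and 444781 at 8 h. The 8 h mean was 56.7% of the 4 h mean, and both 8 h totals lay below both 4 h totals; with 2 libraries against 2, an exact permutation test cannot go below p = 0.333. Leaving out 1 library at a time gave 50.7% to 64.4%. Within each time the second library read higher than the first, by a median of 0.37 on the log2 scale at 4 h and 0.32 at 8 h. Of all 6 groups, the 2 control 0 h libraries had the lowest correlation across genes (0.837) and the largest median shift (0.81), and the 2 KO 8 h libraries had a correlation of 0.872 and a chi-square per degree of freedom of 14.4, against 3.58 to 4.41 in the other 5 groups. Zcchc8 itself was at 59.3 and 77.5 in control cells at 0 h and at 25.3 and 5.29 in KO cells at 0 h, at 32.7 and 24.7 against 21.3 and 13.6 at 4 h, and at 7.57 and 11.3 against 9.56 and 3.78 at 8 h. The control and KO ranges were separate at 0 h and 4 h and overlapped at 8 h.

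**Figure D1:**
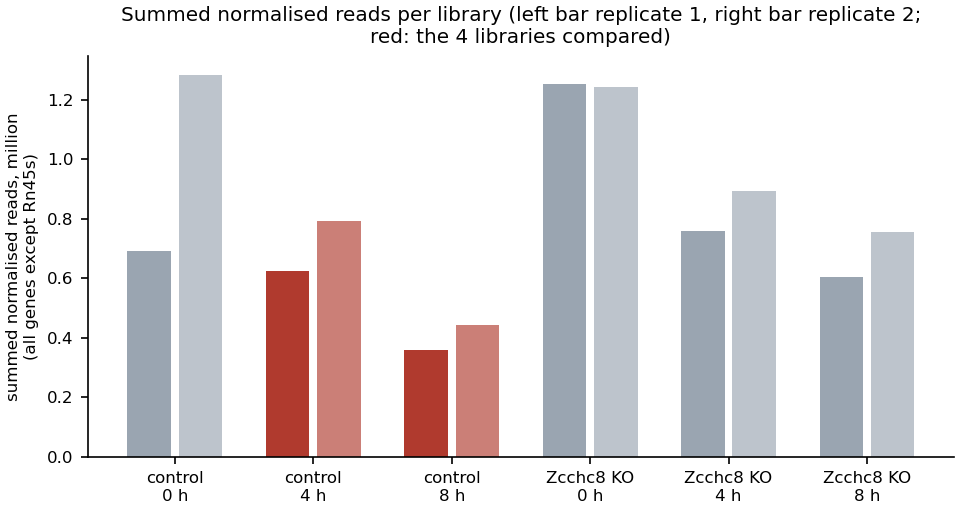
Bars show the summed normalised reads of each of the 12 libraries, with the ribosomal RNA precursor Rn45s left out, and the 4 compared control libraries are red. Both control 8 h libraries are lower than both control 4 h libraries, and the 2 control 0 h libraries differ the most from each other.

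The labelled cell type was checked against marker genes. Of 25 listed genes of naive pluripotency 17 could be tested, and Pou5f1, which encodes OCT4, was at 223 and 314 at 4 h and 144 and 201 at 8 h. The list held 0.282% and 0.297% of all normalised reads at 4 h and 0.266% and 0.284% at 8 h. Nanog and Esrrb were among the 5 of the 25 genes listed at 0 in all 4 libraries. Of 19086 genes with 1 annotated transcript 34.3% passed the filter on low values, and of 4888 genes with several 8.47% did. Values of genes with several transcripts may therefore be undercounts, and a 0 in the table does not show that such a gene is silent; Nanog, Esrrb and Pou5f1 are among them. Of 30 listed markers of fibroblasts and other mesenchymal cells 23 could be tested, and they held 1.78% and 1.70% of the reads at 4 h and 2.73% and 2.77% at 8 h. In the 4 libraries 3 of the 30, Pdgfrb, Postn and Sparc, each with several transcripts, were listed at 0, and the labels name no feeder cells. In bulk RNA, fewer cells of a type and less RNA per cell cannot be told apart.

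Most RNAs were lower at 8 h than at 4 h. Of 6952 genes with a mean of at least 10 normalised reads over the 12 libraries, 6342 (91.2%) had a negative log2 change and 605 a positive one. The median change was -0.79, which leaves 57.7% of the 4 h value, and 5% of genes lay below -1.74 and 5% above 0.25. The standard error of a gene's change had a median of 0.54. By limma with an adjusted p below 0.05, 322 genes were lower (4.63% of those tested) and 0 were higher; at an unadjusted p below 0.05, 2152 were lower and 10 higher. Genes called lower had a median log2 change of -1.65, with 31.1% left, and the weakest called change was -1.16. For 4603 genes (66.2%) both 8 h libraries were below both 4 h libraries, and for 145 (2.09%) both were above. Those 145 were mostly rare RNAs, with a median 4 h level of 4.86 against 29.1 for all genes tested, and Cd248 was the only one with a 4 h mean of 100 or more.

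The bulk shift of -0.79 is carried by the deposited scaling of the libraries. When the libraries were rescaled by the trimmed mean of M-values (TMM), which sets the typical gene to no change, the median was 0.00, limma called 9 genes lower (0.129%) and 0 higher, and both 8 h libraries were below both 4 h libraries in 1462 genes (21%) and above in 1533 (22.1%). The quasi-likelihood test of edgeR with the deposited factors called 577 lower (8.3%) and 0 higher. DESeq2 with its own size factors tested 2909 genes and called 23 lower (0.791%) and 19 higher (0.653%). All 23 were also called lower by limma on the deposited scale. A late change in control given below is therefore read against -0.79 on the deposited scale or against 0.00 after TMM. The count of lower genes also depended on single libraries: it was 10 and 2 without the first or the second control 4 h library, 9 and 87 without the first or the second control 8 h library, 1647 and 1643 without the first or the second control 0 h library, and 629 and 643 without the first or the second KO 8 h library.

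**Figure D2:**
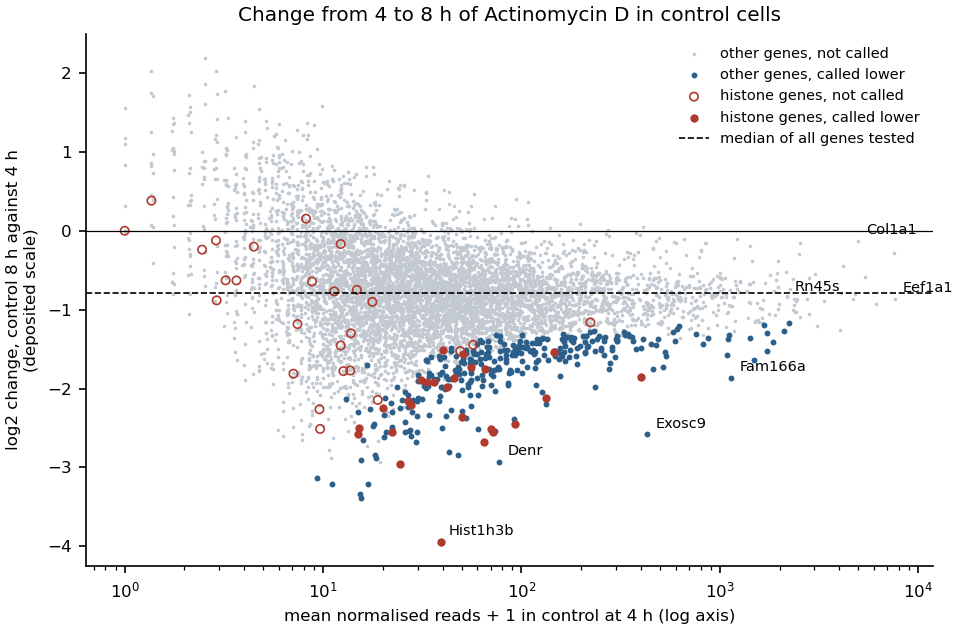
Each point is 1 of 6952 genes, with its mean control 4 h level plus 1 (normalised reads, log axis) against its log2 change from 4 h to 8 h; histone genes are red, genes called lower are filled, and the dashed line is the median of -0.79. Calls lie at the bottom of the cloud and at medium to high levels, and most of the histone genes lie below the median line.

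Many of the histone genes hold a short 3′ stem-loop motif, and its sequence is shown because this element takes the place of a poly(A) tail in histone mRNAs. The motif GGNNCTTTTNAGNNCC was searched on the transcript strand in the first 100 bases after the stop codon, and 34 of 6483 tested genes with such a window held it (0.524%). Of these 34 genes 33 were in the histone list, where 36 genes had a window, and the other was H2afx, which encodes a histone variant. Hist1h1a, Hist1h4k, Hist1h2bn and Hist1h4a, described further on, are not among the 33. A window needed at least 40 annotated bases after the stop codon, and 36 of the 51 tested histone genes had one. Absence from the 33 can therefore mean a missing window and does not show that a gene lacks the stem-loop. The windows below are 30 bases, 5′ to 3′ on the strand of the gene, from the GENCODE M21 annotation of GRCm38, with the stem-loop motif in capitals.
Hist1h1e, chr13:23621775-23621804, minus strand: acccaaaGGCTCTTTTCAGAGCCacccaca
Hist1h2bb, chr13:23747196-23747225, plus strand: acccaaaGGCTCTTTTAAGAGCCacccaca
Hist1h3e, chr13:23561896-23561925, minus strand: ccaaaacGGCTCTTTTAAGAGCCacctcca
Hist1h4h, chr13:23531451-23531480, plus strand: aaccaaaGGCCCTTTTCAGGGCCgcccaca
Hist1h4i, chr13:22040959-22040988, minus strand: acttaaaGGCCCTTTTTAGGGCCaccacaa
Hist2h2ac, chr3:96220411-96220440, minus strand: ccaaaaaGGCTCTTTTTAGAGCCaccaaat
The search itself fixed GG, CTTTT, AG and CC, so all 6 share them. The 6 windows differ in bases that the motif leaves free, among them the base after CTTTT, and in the flanks. Of the 34 genes with the motif, 17 were lower (against 4.63% of all genes tested), 26 had both 8 h libraries below both 4 h libraries (against 66.2% of all), and the median log2 change was -1.65.

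The replication-dependent histone mRNAs had the lowest median of the lists with at least 5 genes tested, their own classes aside. Of 51 tested, 25 were lower (49.0%, against 4.63% of all genes) and 0 higher, and the median log2 change was -1.77, or -1.02 after TMM, against -0.79 and 0.00 for all genes. The summed level was 1779 and 2418 at 4 h and 517 and 679 at 8 h, so that 28.5% was left. Both 8 h libraries were below both 4 h libraries in 37 of the 51 genes, which is 72.5% against 66.2% of all genes tested. All 25 called genes were among the 37 with a 4 h mean of at least 10, and they kept 5.67% to 34.6% of their 4 h level; 0 of the 14 rarer ones were called. After TMM 6 of the 51 were lower, against 0.129% of all genes. By DESeq2 9 were lower, against 0.791% of the 2909 genes it tested, and it may have tested fewer than the 51. The count was 6 and 1 without the first or the second control 4 h library, 4 and 16 without the first or the second control 8 h library, and up to 32 when any other library was left out.

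By class, linker histone H1 genes had a median of -1.92 with 4 of 5 lower, and H3 genes a median of -2.31 with 5 of 10 lower. H2B had 6 of 12 lower with a median of -1.83 and H4 had 6 of 11 with a median of -1.78. H2A genes had a median of -0.77 with 4 of 13 lower. Their median after TMM was -0.41, and 35.3% of their summed level was left. Some H2A genes were near the floor at 4 h, among them Hist1h2ad at a mean of 1.46 and Hist1h2ae at 2.66. Such genes can fall little further on log2(value + 1), so the H2A median does not show that this class holds. Near-identical copies within each class can share reads, so values of single histone genes are uncertain.

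Hist1h1a, which encodes a linker histone, was at 64.0 and 63.3 at 4 h and at 7.57 and 10.8 at 8 h. The groups were far apart, and the log2 change was -2.68 (SE 0.41, limma adjusted p = 0.000218). Hist1h3e, an H3 gene, went from 50.9 and 91.1 to 10.8 and 10.8 (-2.55, limma adjusted p = 0.000501), and Hist1h1e from 67.7 and 71.1 to 13.0 and 9.94 (-2.51, limma adjusted p = 0.000501). Hist1h4k, an H4 gene, was at 80.8 and 103 at 4 h and 11.3 and 22.1 at 8 h (-2.45, limma adjusted p = 0.000601). These 4 were also lower after TMM, with limma adjusted p of 0.00448, 0.0132, 0.0116 and 0.0116. Over all alternatives the adjusted p of Hist1h1a stayed between 4.65e-06 and 0.039, whereas those of Hist1h3e, Hist1h1e and Hist1h4k reached 0.131, 0.0871 and 0.131. Of these 4 genes 1 stayed called without the second control 4 h library and 3 without the first control 8 h library.

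Among more abundant histone mRNAs, 2 were of the 10 largest falls above a level of 100. Hist1h4a was at 333 and 463 at 4 h and at 94.6 and 122 at 8 h (log2 change -1.86, limma adjusted p = 0.00579). Hist1h4h was at 99.0 and 164 at 4 h and at 27.0 and 30.3 at 8 h (-2.12, limma adjusted p = 0.00283), but its adjusted p after TMM was 0.175. An H4 gene with the same motif, Hist1h4i, was at 10.2 and 12.4 at 4 h and at 11.3 and 8.58 at 8 h (-0.17, adjusted p = 0.766), and its groups overlapped. In KO cells Hist1h4i stood at 217 and 290 at 4 h and at 220 and 246 at 8 h. Hist1h4i, and Hist1h2ab further on, came into the text through the comparison with the first 4 h.

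**Figure D3:**
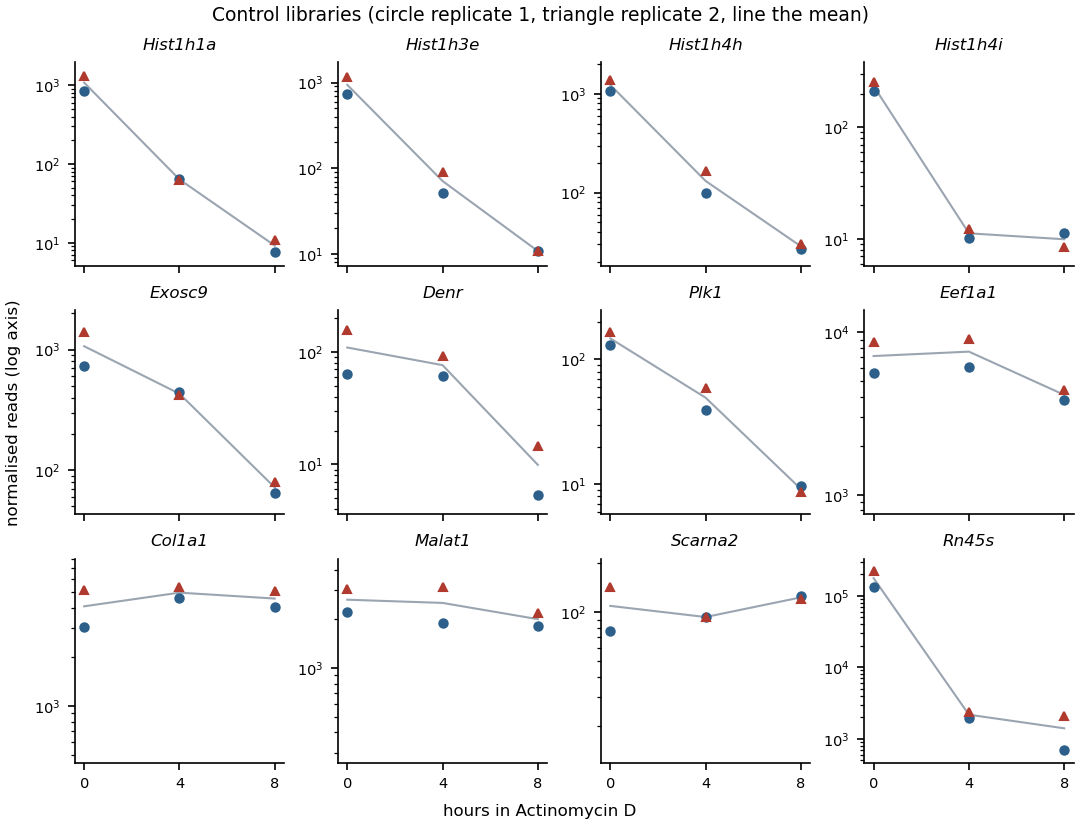
The panels show 12 genes in the 6 control libraries at 0 h, 4 h and 8 h (normalised reads, a separate log axis for each gene); points are libraries and lines join the means. Hist1h1a, Hist1h3e, Hist1h4h, Exosc9, Denr and Plk1 are lower at 8 h than at 4 h without overlap, while the 4 h and 8 h libraries of Hist1h4i and Malat1 overlap and those of Scarna2 are higher at 8 h.

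Among genes with a level of at least 100 the largest falls were in genes of varied function. Exosc9, a core subunit of the RNA exosome, was at 444 and 417 at 4 h and at 64.3 and 79.1 at 8 h, which left 16.7% (log2 change -2.58, SE 0.39, limma adjusted p = 0.000218). The groups did not overlap, the change was -1.74 after TMM with a limma adjusted p of 0.00434, and over all alternatives the adjusted p lay between 8.66e-13 and 0.039. Ubxn8, which encodes a UBX-domain protein of the endoplasmic reticulum, was at 148 and 116 at 4 h and 27.0 and 28.5 at 8 h (-2.20, adjusted p = 0.00456). Glipr1 went from 209.6 and 258 to 52.4 and 65.1 (-1.97, adjusted p = 0.00741). Tfip11, a spliceosome disassembly factor, went from 114 and 122 to 32.4 and 27.1 (-1.95, adjusted p = 0.00916). Fam166a was the most abundant of them, at 1134 and 1149 against 281 and 349 (-1.86, adjusted p = 0.00916). The rest of the 10 largest falls were Pp2d1 (-2.04), Lrriq4 (-1.84), Eml5 (-1.76) and the histone genes Hist1h4h and Hist1h4a. Groups that do not overlap were part of the choice of these 10.

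Of these 10 genes 7 share bases with a coding gene of the opposite strand: Exosc9 with Ccna2, Pp2d1 with Rab5a, Glipr1 with Krr1, Tfip11 with Srrd, Fam166a with Tubb4b, Lrriq4 with Lrrc34 and Eml5 with Zc3h14. No source used here gives the strand setting of the counting, so reads of the 2 genes of such a pair may not be told apart. Across all genes, 124 of the 322 called lower (38.5%) had such an overlap, against 1549 of the 6952 tested (22.3%). Genes with an overlap had a median of -0.91 and those without one -0.76, or -0.10 and 0.03 after TMM. Their median 4 h levels were 45.7 and 26.3, and abundant genes were called more often. The parts of shared reads and of level in this were not tested. Of the 10, limma called 1 after TMM and DESeq2 called 8, and 2, 1, 1 and 9 stayed called without the first control 4 h, second control 4 h, first control 8 h and second control 8 h library.

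Relative to the typical RNA, 9 genes were lower after TMM, and 6 of them were histone genes. Beside Hist1h1a, Hist1h1e, Hist1h3e and Hist1h4k these were Hist1h2bn, from 20.4 and 26.3 at 4 h to 1.08 and 3.61 at 8 h, and Hist1h3f, from 49.5 and 48.7 to 7.03 and 10.8. The other 3 were Exosc9, 5430405H02Rik and Denr. Denr, a factor in translation reinitiation and ribosome recycling, was at 61.1 and 91.1 at 4 h and at 5.40 and 14.5 at 8 h, with 13.0% left and no overlap (-2.93, limma adjusted p = 0.000501, and 0.0132 after TMM). The level of 5430405H02Rik, which overlaps Tgif2 on the other strand, was 63.3 and 81.9 at 4 h and 10.3 and 13.1 at 8 h. All 9 were also lower by DESeq2 and 8 by edgeR with TMM.

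The list of cell cycle regulators, some of whose mRNAs and proteins turn over with each division, held several called genes. Of 25 tested 6 were lower (24.0%, against 4.63% of all genes), and the median was -1.20, or -0.38 after TMM. Plk1, a mitotic kinase, was at 39.3 and 59.5 at 4 h and at 9.73 and 8.58 at 8 h, without overlap (-2.28, limma adjusted p = 0.00613). Cenpf, a kinetochore protein, went from 116 and 154 to 34.6 and 51.0 (-1.64, adjusted p = 0.0239), and Ccne1, the cyclin E1 of the start of S phase, from 58.9 and 41.7 to 11.9 and 15.4 (-1.80, adjusted p = 0.0281). Ccna2, cyclin A2, went from 511 and 549 to 198 and 167 (-1.54, adjusted p = 0.0285), and it is the gene that overlaps Exosc9. Ccnb1 and Ccnf, B- and F-type cyclins, were the others called, both at -1.39. The D-type cyclin Ccnd1 was at 145 and 215 at 4 h and at 112 and 161 at 8 h (-0.39), Ccnd2 changed by -0.17 and the transcription factor E2f1 by 0.28, and none of these 3 was called. After TMM none of Plk1, Cenpf, Ccne1 and Ccna2 was called, and without the second control 8 h library 1 of these 4 was, while 0 were without any other 1 of the 4 compared libraries.

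Among the genes of RNA decay itself, 2 of 13 nuclear exosome and adaptor genes were lower (against 4.63% of all genes), with a median of -1.17 (-0.39 after TMM). Beside Exosc9 this was Skiv2l2, the MTR4 helicase of the nuclear exosome, from 122 and 137 at 4 h to 36.8 and 49.7 at 8 h (-1.57, limma adjusted p = 0.0281), which was not called after TMM or without any 1 of the 4 compared libraries. The exosome nuclease gene Dis3 had a change of -1.34 (adjusted p = 0.0536). Of 20 genes of cytoplasmic decay 2 were lower, also against 4.63% of all genes, with a median of -0.80 (0.00 after TMM): Upf3a (-1.47, adjusted p = 0.0421) and Smg1 (-1.37, adjusted p = 0.0404), both of nonsense-mediated decay. Neither was called when any 1 of the 4 compared libraries, or any 1 of the KO 0 h and KO 4 h libraries, was left out.

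Mitochondrial ribosomal proteins had a median of -1.11 (-0.29 after TMM), and 6 of 63 were lower (9.52%, against 4.63% of all genes). Mrpl19 was at 111 and 91.9 at 4 h and at 33.0 and 38.4 at 8 h (-1.48, limma adjusted p = 0.0308), and it overlaps Gcfc2 on the other strand. Mrps12 was at 38.6 and 54.8 at 4 h and 8.65 and 19.9 at 8 h (-1.73, adjusted p = 0.0404). Mrps26 and Mrpl27 were also lower, at -2.05 and -1.88. For cytosolic ribosomal proteins the median was -0.80 (0.04 after TMM): 69 of 70 had both 8 h libraries below both 4 h libraries (66.2% of all genes did), their changes ran from -1.20 to -0.36, and 1 of 70 was called (4.63% of all). After TMM 13 of the 70 had both 8 h libraries below and 24 above. That 1 was Rpl17, at 1473 and 1868 at 4 h and 666 and 781 at 8 h (-1.20, adjusted p = 0.0422). None of Mrpl19, Mrps12, Mrps26, Mrpl27 and Rpl17 was called after TMM. Without the second control 8 h library 1 of the 4 mitochondrial genes stayed called, and without any other of the 4 compared libraries 0 did; Rpl17 was not called when any 1 of these 4, or of the KO 0 h and KO 4 h libraries, was left out.

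Most other housekeeping genes stayed close to the bulk. Translation factors had a median of -0.87 with 4 of 41 lower (4.63% of all genes were), among them Eif1, which selects the start codon, at 151 and 153 against 38.9 and 69.1 (-1.53, limma adjusted p = 0.0243), and Eif2s2 (-1.25), Eif3g (-1.35) and Eif3a (-1.21). Replication machinery had a median of -0.92 with 1 of 23 lower, the replication protein A subunit gene Rpa2 (-1.82, adjusted p = 0.0416). The proteasome had a median of -0.83 with 1 of 29 lower (Psmd7, -1.61, adjusted p = 0.0234), glycolysis -0.80 with 1 of 8 (Hk2, hexokinase 2, -1.40, adjusted p = 0.0335), and chaperones -0.89 with 1 of 20 (Hspa8, -1.16, adjusted p = 0.0484). None of the genes named here was called after TMM. Without the second control 8 h library 1 of them, a translation factor, stayed called, and without any other of the 4 compared libraries 0 did. The respiratory chain had a median of -0.71 with 0 of 62 called, tRNA synthetases -0.80 with 0 of 13, SR and hnRNP splicing factors -0.86 with 1 of 16, Integrator subunits -0.81 with 0 of 6, and numbered zinc finger genes -0.77 with 1 of 99.

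The pluripotency genes also followed the bulk in their median, at -0.86 (-0.06 after TMM). Of 17 tested 0 were called, where 4.63% of all genes were called lower. Tdgf1, the Nodal co-receptor Cripto, was at 255 and 393 at 4 h and at 123 and 142 at 8 h (-1.25, limma adjusted p = 0.0509). Fbxo15, an Oct4 target, was at 37.8 and 28.6 at 4 h and 5.94 and 11.7 at 8 h (-1.85, adjusted p = 0.0509). Both were without overlap between the times. Targets of p53 had a median of -0.72 with 0 of 16 called.

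**Figure D4:**
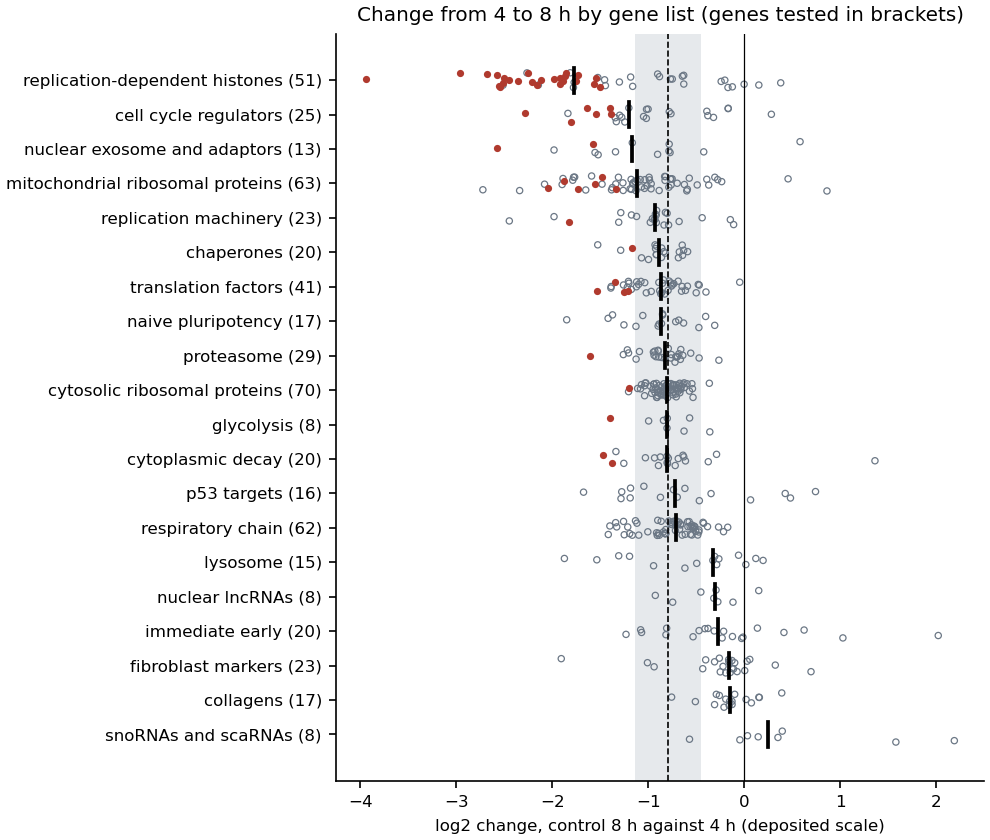
Each point is a gene of 1 of 20 lists at its log2 change from 4 h to 8 h in control; filled red points were called lower, black bars are list medians, the dashed line is the median of all genes tested and the grey band their quartiles (-1.14 to -0.45). The histone list has the lowest median at -1.77, and the medians of the small nucleolar RNA, collagen, fibroblast, immediate early, nuclear long noncoding and lysosomal lists lie to the right of the band.

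With all 12 libraries on the deposited scale limma called 0 RNAs higher; it called 2 with the 4 compared libraries only, 2 without the first control 0 h library and 2 without the second. Of the 5 genes with the highest 4 h level, Col1a1, a chain of type I collagen, was at 4580 and 5357 at 4 h and at 4056 and 5082 at 8 h (-0.13, limma adjusted p = 0.803), and Rmrp, the RNA of RNase MRP, at 6484 and 8675 against 4796 and 7968 (-0.28, adjusted p = 0.606). The groups overlapped in both. Rmrp overlaps Ccdc107 on the other strand. Eef1a1, the elongation factor that brings tRNAs to the ribosome, was at 6122 and 9079 at 4 h and at 3831 and 4406 at 8 h (-0.86, adjusted p = 0.101), Hsp90ab1 at 5252 and 7069 against 2935 and 3492 (-0.93, adjusted p = 0.0834) and Ybx1 at 4776 and 6035 against 3135 and 4070 (-0.59, adjusted p = 0.243). These 3 had separate groups but were not called.

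For collagen genes the median was -0.15 (0.69 after TMM), and 0 of 17 were called, where 4.63% of all genes were called lower. Their summed level at 8 h was 91.2% of that at 4 h. For fibroblast markers the median was -0.16 (0.69 after TMM), and 0 of 23 were called. The marker sum was 11122 and 13462 at 4 h and 9818 and 12339 at 8 h, with 90.1% left. The part of such cells in these values was not tested. After TMM, both 8 h libraries were above both 4 h libraries in 13 of the 17 collagens and 20 of the 23 markers, against 22.1% of all genes. The lists share 6 genes. DESeq2 called 6 of their 34 distinct genes higher, among 19 higher calls in the 2909 genes it tested (0.653%). The 34 are the genes tested by limma, and DESeq2 may have tested fewer of them. Of the 19, 10 had a positive change and 4 had both 8 h libraries above both 4 h libraries on the deposited scale. DESeq2's adjusted p for Col1a1 was 0.0482, with a log2 change of 0.70 on its own scale. Cd248, a surface protein of stromal cells, was at 103 and 110.5 at 4 h and at 113 and 165 at 8 h (0.36, limma adjusted p = 0.509), with an adjusted p of 0.00371 by DESeq2 and up to 0.902 under other alternatives. Members did not all hold: Twist2 was at 5.82 and 8.50 at 4 h and 0 and 3.61 at 8 h (-1.91, adjusted p = 0.152), whereas Cdh2, N-cadherin, was at 12.4 and 18.5 against 21.6 and 29.4 (0.70, adjusted p = 0.325). In KO cells the median late change was -0.42 for collagens and -0.60 for fibroblast markers, against -0.45 for all genes tested. After TMM these 3 KO medians were -0.03, -0.21 and -0.08.

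Small nucleolar and Cajal body RNAs, which guide the modification of other RNAs, had a median of 0.25 (1.06 after TMM). However, 8 of 114 could be tested, and limma called 0 of them, where 4.63% of all genes were called lower. Scarna2 was the most abundant, at 93.1 and 93.5 at 4 h and at 126 and 121 at 8 h, and was higher at 8 h without overlap (0.40, limma adjusted p = 0.488; DESeq2 adjusted p = 0.0242). Snora74a was at 13.1 and 4.63 against 27.0 and 24.4 (1.58, adjusted p = 0.138). In KO cells the median of these 8 was -1.20, against -0.45 for all genes tested. For nuclear long noncoding RNAs the median was -0.30 (0.51 after TMM), and 0 of 8 were called. Malat1 was at 1887 and 3128 at 4 h and 1804 and 2181 at 8 h (-0.29, adjusted p = 0.554), with overlapping groups, and Xist had a change of -0.93 (adjusted p = 0.203).

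Immediate early genes have short-lived mRNAs. Their late median was -0.27 (0.46 after TMM), and 0 of 20 were called, where 4.63% of all genes were called lower. From 0 h to 4 h their median was already -2.65, with 14 of 20 lower (11.8% of all genes were). The 30 listed genes summed to 300 and 399 at 4 h. A gene near the floor at 4 h can fall little further on log2(value + 1), so the late median does not show that these RNAs hold. Egr1 was at 0.728 and 0 at 4 h and at 3.78 and 4.97 at 8 h (2.02, limma adjusted p = 0.189), values of a few reads. For lysosomal genes the median was -0.33 (0.51 after TMM), 0 of 15 were called, and 73.6% of their sum was left. Scarb2 (-1.54, adjusted p = 0.0688) and Npc1 (-1.19, adjusted p = 0.0688) lay below the bulk in this list. The ribosomal RNA precursor Rn45s was at 1967 and 2369 at 4 h and at 694 and 2104 at 8 h (-0.84, adjusted p = 0.141), and its groups overlapped.

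Features of the transcripts went with small shifts of the change. Coding genes had 287 of 6555 lower (4.38%) and a median of -0.79, and noncoding genes 30 of 363 (8.26%) and a median of -0.90. The median 4 h level was 28.8 for coding and 41.6 for noncoding genes, and the part of level in these shares was not tested. The noncoding median was -0.10 relative to all genes, and 0.02 without the first control 4 h library. By quartile of the level over the 12 libraries the share called lower went 0.460%, 1.78%, 5.29% and 11% from rare to abundant RNAs, while the median went from -0.67 over -0.74 and -0.82 to -0.87. After TMM these 4 medians were 0.02, 0.04, 0.00 and -0.03. The share of G and C at the wobble position of codons (GC3) went with the change: from the lowest to the highest quartile the medians were -0.92, -0.79, -0.76 and -0.69, and Spearman's rho across 6583 genes was 0.149, as a description of these 4 libraries, since genes share the same libraries. Within each quartile of level the lowest GC3 quartile had the lower median, -0.82 against -0.58, -0.83 against -0.55, -0.96 against -0.71 and -0.98 against -0.77.

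The 3′ UTR motifs of known decay factors went with little difference. For TATTTAT, an AU-rich element core, genes with 0, 1 and 2 or more copies on the transcript strand had medians of -0.80 (4741 genes), -0.79 (1235 genes) and -0.71 (607 genes). For TGTANATA, the Pumilio element, the medians were -0.78, -0.85 and -0.80 in the same order.

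The same interval was compared in cells labelled Zcchc8 KO, to see whether late loss differs in them. The state of the nuclear exosome targeting complex in these cells was not measured here. In KO cells the median change was -0.45, 2 genes were lower by limma (0.0288%) and 0 higher (719 and 7 at an unadjusted p below 0.05), and 47.7% of genes had both 8 h libraries below both 4 h libraries. The 2 were Hist1h2bm (-2.92, limma adjusted p = 0.00198) and Cep192 (-2.91, adjusted p = 0.0117), named here after their values were seen. The KO count was 0 after TMM and with edgeR; it was 49 and 50 without the first or the second control 0 h library, 3 without the first and 3 without the second control 4 h library, 0 and 1 without the first or the second KO 4 h library, and 96 and 0 without the first or the second KO 8 h library. The difference of the changes, KO minus control, had a median of 0.32 (-0.10 after TMM), and limma called 0 genes in either direction (348 higher and 40 lower at an unadjusted p below 0.05, and 228 and 240 after TMM); edgeR called 0 and DESeq2 1. The control change was the more negative in 4755 of 6952 genes (68.4%). Rptn had the smallest p, with 101 and 130 in control at 4 h, 23.2 and 48.8 at 8 h, and in KO cells 84.1 and 99.8 at 4 h and 79.7 and 222 at 8 h (difference 2.27, limma adjusted p = 0.875). Ubxn8, among the largest falls in control, was at 101.5 and 125 in KO at 4 h and at 54.2 and 168 at 8 h (difference 1.96). In both genes the 2 KO 8 h libraries lay farther apart than the other pairs given.

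The late change was set beside the change in the first 4 h, from 0 h to 4 h, with which it shares the control 4 h libraries. The early median was -0.49, with 817 genes lower (11.8%) and 34 higher (0.489%). After TMM it was 0.13, with 442 lower and 438 higher, and without the first or the second control 0 h library 2067 or 234 genes were lower on the deposited scale, and without the first control 4 h library or the second 244 or 496. Histone genes were at a median of -4.07 early and -1.77 late, with all 51 lower early. The filter included the 0 h libraries, and 14 of the 51 had a control 4 h mean below 10. For such genes an early fall can follow from the filter, and the floor limits the late change. The count of 51 and the 2 medians are therefore a description only. The early change rests on the 2 control 0 h libraries, whose totals without Rn45s were 690451 and 1283660. Limma called 13 genes with a less negative or more positive late than early change (0.187%) and 0 the other way (285 and 190 at an unadjusted p below 0.05); after TMM it called 40 (0.575%) and 0. Rn45s, at -6.30 early and -0.84 late, and Hist1h4i, at -4.26 and -0.17, were among them, as were Sox2, at -3.73 and -0.47, and Fgf4, at -3.68 and 0.19, which were named after their values were seen. Of the 13 genes 4 were histone genes. A gene already low at 4 h cannot fall as far again on log2(value + 1), so its positive difference does not show a slower late loss. This holds for Hist1h4i, with a 4 h mean of 11.3. In the other direction Denr had the smallest p, with a late minus early difference of -2.52.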

How the data were processed

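Total RNA of 12 ESC libraries was sequenced after rRNA removal. Per the submitters' processing notes, the tools were TopHat2 2.1.1, HTSeq 0.6.0 and DESeq2, with build mm9; their roles and the genes or spike-ins behind the scaling are not stated. The deposited signal values are the authors' normalised read counts per transcript: every value was a whole multiple of 1 factor per library within 0.001 reads (100% of values), which gave back whole reads. Of 33896 entries 978 repeats were dropped and 32918 transcripts were summed to 23974 genes. The 6952 genes whose mean over the 12 libraries reached 10 entered limma 3.58.1 (R 4.3.3; trend, robust, 6 group means over all 12 libraries) on log2(value + 1), with Benjamini-Hochberg adjustment and a threshold of 0.05. A log2 change is on that scale and understates changes of rare RNAs. Alternatives used TMM, edgeR 4.0.16 and DESeq2 1.42.0 on the whole reads, a pseudocount of 5, other filters, fewer libraries, a replicate block and each library left out; the step was tested on simulated data. Reads per library ran from 465324 to 1364523, without molecular identifiers. The named genes were Zcchc8, Rn45s, up to 10 largest called falls and rises at a level of at least 100 without overlap (5 by smallest p where none was called), the 5 highest at 4 h, up to 5 called (else 3 by smallest p) per difference, and up to 4 by smallest p per list; others are said to be chosen on their values, or are the genes called after TMM and further members that show the range of a list. The rule also named genes called higher after TMM, of which there were 0. Members, lists and tests were chosen with earlier results of these data known. Sequences and transcript features came from GENCODE M21 (GRCm38) by RefSeq identifier, with 6883 of 6952 genes matched to a transcript. Overlaps used the same match, or the gene symbol where there was none. The files' own coordinates were not used.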

Additional observations from a re-analysis of the deposited data

Results flagged for a closer look

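In 5 genes of the naming rule the late change in control, from 4 h to 8 h, differed from the early change, from 0 h to 4 h, by limma's test of the difference, in which both changes share the control 4 h libraries. Mir292b, the precursor of a microRNA of the ESC-specific miR-290 cluster, was at 141 and 262 at 0 h, 1.46 and 0 at 4 h and 1.08 and 5.87 at 8 h, and the late minus early difference was 8.22 on the log2 scale (limma adjusted p = 0.00721). Its 4 h and 8 h values stand for a few reads each. Socs3, the feedback inhibitor of LIF and STAT3 signalling, was at 85.6 and 213 at 0 h, 1.46 and 8.50 at 4 h and 7.57 and 8.13 at 8 h, a difference of 5.69 (limma adjusted p = 0.023). For Rn45s the difference was 5.46 (limma adjusted p = 2.31e-06). The histone genes Hist1h2ab and Hist1h4i had differences of 4.46 (limma adjusted p = 0.0287) and 4.09 (limma adjusted p = 0.00156). Over all alternatives the adjusted p reached 0.197 for Mir292b, 0.778 for Socs3 and Hist1h2ab, 0.154 for Hist1h4i and 0.0273 for Rn45s. Fewer than 4 libraries stand in each group, so no group could be tested for a single library that lies apart.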

How the results depend on the processing

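The count of genes lower at 8 h than at 4 h in control (322) was 9 under TMM, 9 with edgeR and TMM, 23 with DESeq2, 9 with no filter, 59 with the control libraries only, 577 with edgeR on the deposited factors, 852 with a filter at 50 and 1789 with the 4 compared libraries only. Genes called higher (0) were 19 with DESeq2 and 2 with the 4 compared libraries only. The KO minus control difference (0 higher) gave 1 higher with DESeq2. The late minus early difference (13 higher, 0 lower) gave 40 higher with TMM, 39 with edgeR and TMM, 66 with DESeq2, 24 with a pseudocount of 5, 2 with no filter and 4 with the control libraries only, and 1 lower with DESeq2. Histone genes lower (25) were 6 with TMM, 6 with edgeR and TMM, 9 with DESeq2 and 6 with no filter. Leaving out 1 of the 12 libraries gave 2 to 1647 lower and 0 to 2 higher, 0 to 1 higher and 0 to 1 lower for KO minus control, 2 to 86 higher and 0 to 37 lower for late minus early, 1 to 32 histone genes, and a noncoding median relative to all genes of -0.19 to 0.022. With the median deviation of each library removed, same-numbered libraries did not deviate together (r = 0.002 across genes between control 4 h and 8 h). This check cannot see a shift shared by whole libraries, and the second library read higher in control at 0 h, 4 h and 8 h. Whether the numbers pair the libraries was therefore not settled. A fit with the replicate block gave 1615 lower and 1 higher, and 30 higher for late minus early. Signs turned under TMM, edgeR with TMM and DESeq2, in this order, for Rn45s (0.0084, 0.13, 0.13), Rmrp (0.57, 0.57, 0.56), Ybx1 (0.26, 0.25, 0.24), Col1a1 (0.72, 0.71, 0.70), Col9a2 (0.065, 0.10, 0.088), Col10a1 (0.30, 0.30, 0.30), Kcnq1ot1 (0.083, 0.060, 0.054) and Malat1 (0.55, 0.53, 0.53), and under TMM for Tpi1 (0.0029). With 1 library left out, ranges crossed 0 for Tsix (-0.090 to 0.40), Rcn3 (-0.18 to 0.48), D030025P21Rik (-0.10 to 0.28), Rmrp (-0.64 to 0.087), Col1a1 (-0.29 to 0.037) and Malat1 (-0.66 to 0.072). Of the 34 named genes called lower, Exosc9 and Hist1h1a were called in every alternative fitted, and 28, 32, 30 and 18 were not called without the first or second control 4 h or the first or second control 8 h library. Beyond the settings that fit fewer genes or samples, the cause of these moves was not tested. The share of calls went with the level: in the lowest quartile of level 0.460% of genes were lower, against 11% in the highest.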
